A study of Rattus norvegicus with 6 samples.

Results

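The voltage-gated ion channel genes of the rat were taken as every probe set whose platform annotation names exactly 1 gene with a symbol that starts with Kcn, Scn, Cacn, Hcn or Clcn, leaving out the epithelial Scnn1 genes. This gave 131 probe sets of 83 genes, out of 8740 probe sets other than array controls and 4736 genes named by exactly 1 symbol. Potassium channels made up 82 probe sets of 54 genes, calcium channels 26 probe sets of 14 genes, sodium channels 17 probe sets of 10 genes and chloride channels 6 probe sets of 5 genes. No probe set annotated to 1 gene carried an Hcn symbol. The prefixes also take in auxiliary subunits, inward rectifiers and background potassium channels, which are not all gated by voltage.

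The samples were total RNA from whole hippocampus of rats of 2 selectively bred lines, Syracuse High Avoidance (SHA) and Syracuse Low Avoidance (SLA). The lines carry the names of their ability to learn two-way active avoidance, a task in which a rat crosses between compartments at a signal to avoid a shock. All rats of both lines had been tested in that task and were killed 2 weeks later, so the comparison is between lines after the same testing, with no untested rats among these arrays. Each line had 3 pools of 3 rats, each measured on its own one-colour oligonucleotide array, so n = 3 pools per line throughout, and so few arrays limit the precision. Where nothing says that pools were handled apart, p-values measure only the spread between these pools. Values are linear intensities on the authors' scale, in which all 6 arrays share a trimmed mean of 250.3 or 250.4. Differences are in log2 units, SHA minus SLA, after values below a floor of 8.9 were set to it.

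Voltage-gated channels set the resting potential, the action potential and the calcium entry that releases transmitter. Sodium channels start the spike at the axon initial segment, potassium channels end it and set the firing rate, calcium channels couple it to release and gene expression, and chloride channels and exchangers act at the plasma membrane and in endosomes and lysosomes. A channel is built from a pore-forming subunit, named alpha in sodium and calcium channels, and auxiliary subunits that change its gating and its place in the cell. In hippocampal pyramidal cells A-type, M-type and calcium-activated potassium currents are known for limiting excitability and for their part in synaptic plasticity.

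The tissue check used marker lists. Of 17 hippocampal markers 14 were on the array, and 13 of these were above the floor in all 6 pools, the exception being Slc17a7. All 10 neuronal markers on the array were above the floor in every pool. Microglial markers had a summed intensity of 2770 to 3632 in the SHA pools and 4511 to 4951 in the SLA pools, and by the brightest probe set of each gene all 9 genes tested had lower values in SHA. Over all their probe sets tested it was 12 of 14. Other lists leaned to a side as well. Values were higher in SHA in 18 of 21 neuronal, 17 of 21 hippocampal, 10 of 11 interneuron and 12 of 20 astrocyte probe sets tested. Of 13 oligodendrocyte probe sets tested 10 were lower in SHA. The summed intensity of the neuronal markers overlapped, at 18290 to 23990 in SHA and 16160 to 22090 in SLA. Whether the cell mixture had a part in the channel values was not tested. In whole tissue, fewer cells of a type and less RNA per cell cannot be told apart. Arrays correlated with one another at r between 0.846 and 0.973 on the log2 scale, across probe sets, which are not independent replicates.

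No channel gene differed between the lines past the threshold. Of the 131 channel probe sets 94, of 67 genes, were bright enough to be tested, and in limma 0 of them passed an adjusted p of 0.05. The same count over all 6555 probe sets tested was also 0, a share of 0%, with a lowest adjusted p of 0.807. At an unadjusted p under 0.05 limma called 1 channel probe set, Kcne1, with lower values in SHA, where 1.13% of all probe sets were called lower and 0.366% higher. The SHA and SLA pools did not overlap at all for 4 channel probe sets, which is 4.26% of the 94 against 5.66% of all probe sets tested. With higher values in SHA this held for 1 (Kcnv1), where the share of all probe sets was 2.01%, and with lower values for 3 (Kcne1, Kcnq3 and Kcnh7), where it was 3.65%. All 4 are potassium channel subunits. These shares lie near the background, so they set the channel genes apart from the rest of the array in neither direction. In simulated data with 3 pools per line, the same limma fit over 6555 probe sets recovered 65.6% of the changes of 8-fold. It recovered 38.9% of those of 4-fold and 7.09% of those of 2-fold, so most small differences would be missed at this size. The simulated pools were drawn independently, without the shared deviation of same-numbered pools described below, so these rates are only a rough guide.

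With pool number as a replicate block, limma still passed 0 channel probe sets, but 4 instead of 1 had an unadjusted p under 0.05. They were Kcne1, Kcna1, Kcnc2 and 1 of the 4 probe sets of Cacna1a. Over all probe sets tested this count went from 98 to 345.

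The potassium channel Kcne1 encodes a small auxiliary subunit, with a single membrane pass, that slows the opening of the Kcnq1 channel and is best known in heart and inner ear. Probe set D10709exon_s_at read 71.2, 46.5 and 29.6 in SHA pools 1, 2 and 3 and 157.2, 101.4 and 119.5 in SLA pools 1, 2 and 3. Every SHA pool lay below every SLA pool. The means were 49.1 ± 20.9 in SHA and 126.0 ± 28.5 in SLA (SD, n = 3 pools each). The limma difference was -1.43 ± 0.49 (SE), with an unadjusted p of 0.016 and an adjusted p of 1.0. Between same-numbered pools it was -1.14, -1.13 and -2.01. The shared sign at all 3 numbers follows from the lack of overlap and adds nothing to it. Without SLA pool 1 the unadjusted p was 0.051. The other Kcne1 probe set, M22412_at, was too dim to be tested. It read 14.8, 5.2 and 54.6 in SHA and 15.8, 4.1 and 13.3 in SLA, with 1 pool of each line at or below the floor and SHA pool 3 the highest, so it did not show the same order of the lines. Kcnq1, the channel that Kcne1 joins, was also not tested, with 4 of 6 pools at or below the floor.

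The Kcne1 sequence before its start is shown because this gene had the smallest p between the lines. It covers 250 bases before the RefSeq start (GRCr8), chr11:45077034-45077283 on the minus strand, 5′ to 3′ on the strand of the gene, with each CG in capitals. CG, which reads the same on both strands, was counted in this window of every gene that could be matched, 63 of the 83 channel genes among them.
Kcne1: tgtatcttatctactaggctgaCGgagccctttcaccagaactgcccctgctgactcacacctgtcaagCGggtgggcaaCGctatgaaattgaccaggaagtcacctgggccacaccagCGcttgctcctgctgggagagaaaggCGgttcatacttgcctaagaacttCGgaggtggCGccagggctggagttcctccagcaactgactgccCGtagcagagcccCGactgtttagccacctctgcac
Kcne1 had 9 CG, and 41.1% of all 27457 windows had at least as many. The median was 11 for channel genes and 6 for all genes. A CG count describes these letters and measures neither methylation nor promoter activity.

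Kcnq3 encodes a pore-forming subunit of the M-current, which holds neurons back from repeated firing. AF091247_s_at read 192.3, 234.9 and 226.7 in SHA and 281.6, 380.0 and 261.2 in SLA. The groups did not overlap, with the highest SHA pool at 234.9 and the lowest SLA pool at 261.2. The difference was -0.48 ± 0.28 with an unadjusted limma p of 0.117. A further Kcnq3 probe set, AF087454_at, was too dim to be tested. Kcnh7 encodes an ether-a-go-go related channel of the brain. AF016191_at read 60.9, 48.5 and 48.3 in SHA and 117.7, 65.2 and 68.0 in SLA. The groups did not overlap, but SLA pool 1 stood well above the other SLA pools. The difference was -0.62 ± 0.48 with an unadjusted limma p of 0.223. Kcnv1 encodes a silent subunit, which forms no channel on its own and changes delayed rectifiers of the Kcnb family. X98564cds_at read 101.1, 100.4 and 113.8 in SHA and 45.5, 84.5 and 70.4 in SLA. It was the only channel probe set whose SHA pools all lay above all SLA pools. The difference was 0.70 ± 0.43 with an unadjusted limma p of 0.140.

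**Figure D1:**
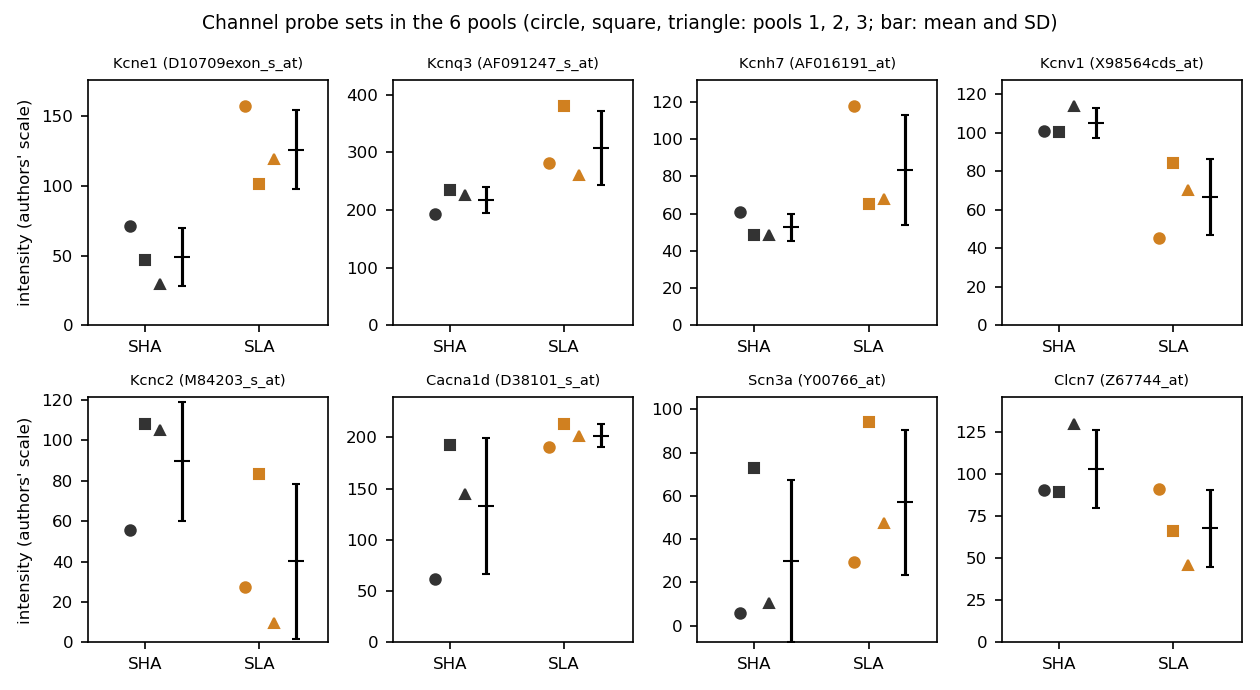
Intensity on the authors' linear scale of 8 channel probe sets in the 3 SHA and 3 SLA pools, with the mean and SD of each line; circles, squares and triangles are pools 1, 2 and 3. The 4 panels of the top row (Kcne1, Kcnq3, Kcnh7, Kcnv1) show groups that do not overlap, the 4 of the bottom row groups that overlap, and the lower SD bar of Scn3a reaches below 0.

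By class, probe sets lay on both sides of 0. The 58 potassium channel probe sets tested split into 28 with higher and 30 with lower values in SHA, with a median of -0.004 that took the other sign after quantile normalization (0.06) and median centring (0.05). Of 12 sodium channel probe sets 4 were higher and 8 lower, with a median of -0.37. Of 19 calcium channel probe sets 7 were higher and 12 lower, with a median of -0.29. Of 5 chloride channel probe sets 2 were higher and 3 lower, with a median of -0.26. Over all 94 the split was 41 higher and 53 lower with a median of -0.08, and over all probe sets tested it was 3155 higher and 3400 lower with a median of -0.01.

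The sodium and calcium medians depended on single pools. Without SHA pool 1 the sodium median was 0.08 in place of -0.37 and the calcium median -0.10 in place of -0.29. Without SLA pool 2 the calcium median was -0.47. Between pools numbered 1 the sodium median was -0.54, between pools numbered 2 it was -0.26 and between pools numbered 3 it was 0.02. The chloride median ran from -1.07 at number 1 through -0.26 at number 2 to 0.56 at number 3, and without SHA pool 2 it was 0.37. The potassium medians were -0.33, -0.13 and 0.22 at numbers 1, 2 and 3, and the calcium medians -0.18, -0.08 and 0.08. No class kept 1 sign over the 3 pool numbers, and neither did the median of all probe sets tested, at -0.09, -0.05 and 0.07.

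**Figure D2:**
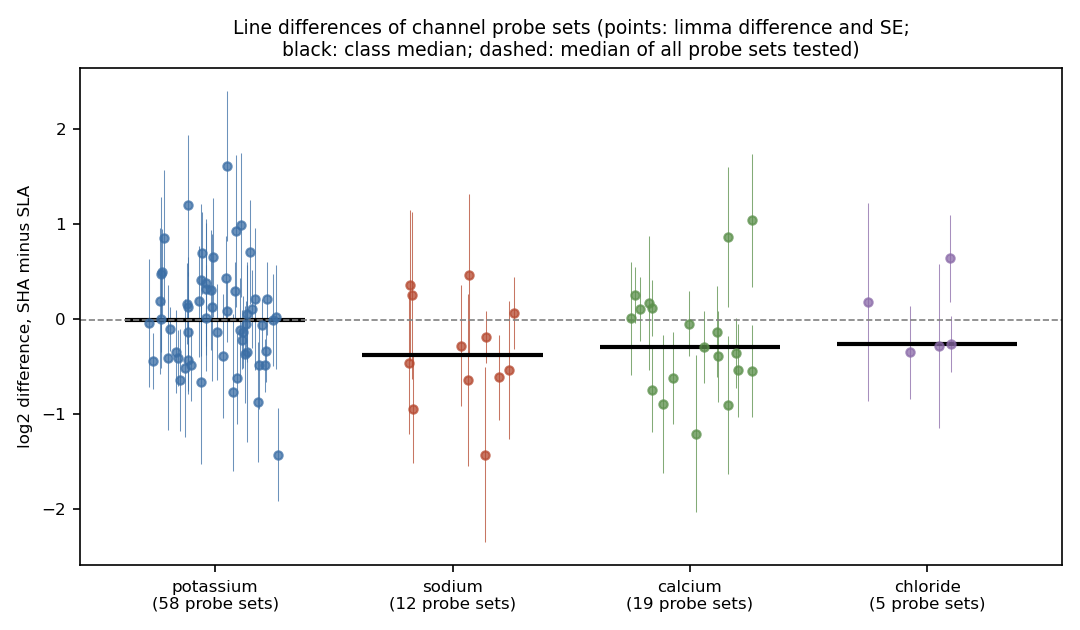
Line difference (log2, SHA minus SLA) of each of the 94 channel probe sets tested, by class, as a point with its SE from limma; points are spread sideways for display only. The black bars are class medians (-0.004, -0.37, -0.29 and -0.26), the dashed line is the median of all probe sets tested (-0.01), and in each class points lie on both sides of 0.

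A list of 69 principal channels of the hippocampus took in neuronal channels, the astrocyte channel Kcnj10 and the intracellular chloride exchangers. Of its genes 44 were on the array, and 59 probe sets of 39 genes were tested. Of these 28 had higher and 31 lower values in SHA, with a median of -0.05, and 0 passed the threshold or an unadjusted p of 0.05 in limma. The list was drawn up with earlier results of these arrays known.

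Delayed rectifier and A-type potassium channels end the spike and delay the next. In the Kcna family 5 of 6 probe sets tested were higher in SHA, with a median of 0.26 (0.40 after quantile normalization and 0.32 after median centring). The exception was a probe set of Kcna1, a channel of axons and terminals. X12589cds_s_at of Kcna1 read 248.1, 891.3 and 304.1 in SHA and 446.8, 1270.1 and 449.0 in SLA. The lines overlapped, but each SLA pool lay above the SHA pool of its number. The difference was -0.64 ± 0.54 with an unadjusted limma p of 0.264. With pool number as a block the unadjusted limma p was 0.00445 and the adjusted p 0.798. The other Kcna1 probe set, M26161_at, differed by 0.19 ± 0.77, in the opposite direction. Both probe sets of Kcna4, an A-type channel, were slightly higher in SHA, by 0.21 ± 0.75 and 0.43 ± 0.45. The cytoplasmic beta subunits that bind Kcna channels differed by 0.12 ± 0.77 for Kcnab1 and by -0.10 ± 0.23 and -0.05 ± 0.25 for Kcnab2. The Kcnab2 probe sets were thus among the closest between the lines, with the smallest errors.

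Kcnc channels open and close fast and let neurons fire at high rates. Kcnc2, known from fast-spiking interneurons, had the largest positive difference of any channel probe set. M84203_s_at read 55.4, 108.3 and 104.9 in SHA and 27.4, 83.2 and 9.6 in SLA. The lines overlapped, since SLA pool 2 lay above SHA pool 1, while SLA pool 3 was close to the floor. The difference was 1.62 ± 0.79 with an unadjusted limma p of 0.070. With pool number as a block the unadjusted limma p was 0.039 and the adjusted p 0.831. The other Kcnc2 probe sets tested differed by 0.38 ± 0.67 and 0.06 ± 0.51, and Kcnc1 by -0.13 ± 0.51. For Kcnb2, a slow delayed rectifier, M77482_at read 13.3, 15.9 and 74.3 in SHA and 64.6, 17.4 and 54.8 in SLA. The pools of each line spanned nearly the same range, and the difference was -0.66 ± 0.87 with an unadjusted limma p of 0.468.

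Kcnd channels carry the A-type current of dendrites. M74898cds_s_at of Kcnd3 read 57.7, 25 and 97.9 in SHA and 46.7, 12.4 and 30.8 in SLA. Each SHA pool lay above the SLA pool of its number, with overlap between the lines, and the difference was 0.99 ± 0.76 with an unadjusted limma p of 0.221. The other Kcnd3 probe sets differed by -0.13 ± 0.63 and -0.04 ± 0.67. Kcnd2, the main A-type subunit of pyramidal cell dendrites, differed by 0.16 ± 0.43 and 0.30 ± 0.30.

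Inward rectifiers, background channels and calcium-activated channels hold the membrane near rest and follow its activity. In the Kcnj family of inward rectifiers 5 of 14 probe sets tested were higher and 9 lower in SHA, with a median of -0.34 (-0.25 after quantile normalization and -0.28 after median centring). Kcnj4 encodes a strong inward rectifier. X83580cds_s_at of Kcnj4 read 84.4, 107.0 and 108.4 in SHA and 28.3, 93.0 and 85.0 in SLA. SLA pool 1 was the lowest of the 6 and the other SLA pools lay within the SHA range, with a difference of 0.71 ± 0.55 and an unadjusted limma p of 0.226. The other Kcnj4 probe set, X87635_at, differed by -0.33 ± 0.33. Kcnj10, the potassium-buffering channel of astrocytes, differed by -0.34 ± 0.95 and -0.37 ± 0.51, and Kcnj3, a G protein-gated subunit, by 0.01 ± 0.56. The background channel Kcnk1 differed by -0.06 ± 0.27.

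Kcnn1 encodes a small-conductance channel opened by calcium that follows bursts with a hyperpolarization. AF000973_s_at read 139.5, 127.3 and 150.8 in SHA and 287.6, 147.1 and 154.0 in SLA. SLA pool 1 stood apart, at 287.6, and the remaining pools lay close together. The difference was -0.43 ± 0.36 with an unadjusted limma p of 0.268. Kcnma1 encodes the large-conductance channel gated by calcium and voltage. U93052_s_at read 28.7, 37.3 and 59.5 in SHA and 22, 22.8 and 32.6 in SLA. The lines overlapped and each SHA pool lay above the SLA pool of its number, with a difference of 0.65 ± 0.63 and an unadjusted limma p of 0.323. The other Kcnma1 probe set tested differed by 0.41 ± 0.80. Among ether-a-go-go channels, Kcnh1 differed by 0.22 ± 0.38 and Kcnh2 by 0.08 ± 0.32 and 0.31 ± 0.63. The Kcnh family as a whole split evenly, with 5 of 10 probe sets higher and 5 lower. After quantile normalization 6 were higher and 4 lower, and after median centring 7 and 3.

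Sodium channel alpha subunits form the pore that starts the spike. Of the 11 alpha subunit probe sets tested 3 were higher and 8 lower in SHA, with a median of -0.47 (-0.40 after quantile normalization and -0.41 after median centring). Scn3a is the alpha subunit best known from the developing brain. Y00766_at read 5.9, 73.1 and 10.4 in SHA and 29.5, 94.3 and 47.3 in SLA. The lines overlapped, SHA pool 1 lay below the floor and each SLA pool lay above the SHA pool of its number. The difference was -1.43 ± 0.92 with an unadjusted limma p of 0.155. The other Scn3a probe set, Y00766_g_at, read 206.2 to 255.2 in SHA and 239.2 to 327.7 in SLA and differed by only -0.19 ± 0.28. Scn1a, known from inhibitory neurons, differed by -0.64 ± 0.90, and Scn2a, known from excitatory axons, by 0.25 ± 0.88. Scn8a, the channel of mature initial segments and nodes of Ranvier, differed by -0.47 ± 0.74 and 0.07 ± 0.38. The auxiliary subunit Scn2b differed by 0.36 ± 0.79. None of these sodium channel differences had an unadjusted limma p under 0.05.

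Calcium channel alpha subunits split evenly, with 6 of 12 Cacna1 probe sets tested higher and 6 lower in SHA. Cacna1d, an L-type channel, had the smallest p of the class. D38101_s_at read 61.9, 192.9 and 144.5 in SHA and 190.9, 213.4 and 200.8 in SLA. Only SHA pool 2 reached into the range of SLA, and SHA pool 1 was far below the rest. The difference was -0.75 ± 0.44 with an unadjusted limma p of 0.123. For the P/Q-type channel Cacna1a the 4 probe sets went both ways, at 1.04 ± 0.70, 0.86 ± 0.74, -0.29 ± 0.38 and -0.90 ± 0.73. For the N-type channel Cacna1b they differed by 0.01 ± 0.59 and -0.62 ± 0.49, and for the L-type channel Cacna1c by 0.17 ± 0.70 and 0.25 ± 0.30. The R-type channel Cacna1e differed by -0.54 ± 0.49. Of the T-type channels, Cacna1g differed by 0.11 ± 0.34 and Cacna1h by -0.89 ± 0.73.

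The beta subunits bring calcium channels to the membrane, and 4 of 5 probe sets of them were lower in SHA, with a median of -0.39 (-0.40 after quantile normalization and -0.34 after median centring). L02315_at of Cacnb4 read 13.7, 48.2 and 8.7 in SHA and 23.8, 56.4 and 53.4 in SLA. SHA pool 3 lay at the floor and SHA pool 2 overlapped the SLA pools, with a difference of -1.20 ± 0.82 and an unadjusted limma p of 0.176. Cacnb1 differed by -0.35 ± 0.37, Cacnb2 by -0.55 ± 0.48 and -0.39 ± 0.48, and Cacnb3 by 0.12 ± 0.29. The alpha-2-delta subunit Cacna2d1, the target of gabapentin, differed by -0.05 ± 0.34.

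None of the 5 chloride channel and exchanger probe sets tested had an unadjusted limma p under 0.05. Clcn7 encodes a chloride-proton exchanger of lysosomes. Z67744_at read 90.6, 89.1 and 130.0 in SHA and 91.3, 66.1 and 45.9 in SLA. SLA pool 1 lay within the SHA range and the other SLA pools below it, with a difference of 0.64 ± 0.45 and an unadjusted limma p of 0.191. The endosomal exchangers Clcn3, Clcn4 and Clcn5 differed by -0.26 ± 0.29, -0.35 ± 0.49 and -0.28 ± 0.86. The muscle channel Clcn1 differed by 0.18 ± 1.04, with SLA pool 2 below the floor.

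Genes with several probe sets gave a check within the gene. Of 34 such channel genes 21 had at least 2 probe sets tested. In 13 of these, 61.9%, all probe sets had the same sign, 7 with lower and 6 with higher values in SHA. Over all genes with at least 2 probe sets tested it was 593 of 1159, 51.2%. The 13 genes were Cacna1c, Kcna4, Kcnc2, Kcnd2, Kcnh2 and Kcnma1 on the higher side and Cacnb2, Kcnab2, Kcnj10, Kcnj11, Kcnmb1, Scn3a and Scn4a on the lower. The signs differed in the other 8, which were Cacna1a, Cacna1b, Kcna1, Kcnd3, Kcnh3, Kcnj1, Kcnj4 and Scn8a. The widest spread was in Cacna1a, from -0.90 to 1.04. In Scn3a the same-signed values lay far apart, at -1.43 and -0.19. Names ending in _s_at mark probe sets that, on arrays of this type, can match more than 1 related transcript, so some of these values may mix transcripts.

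**Figure D3:**
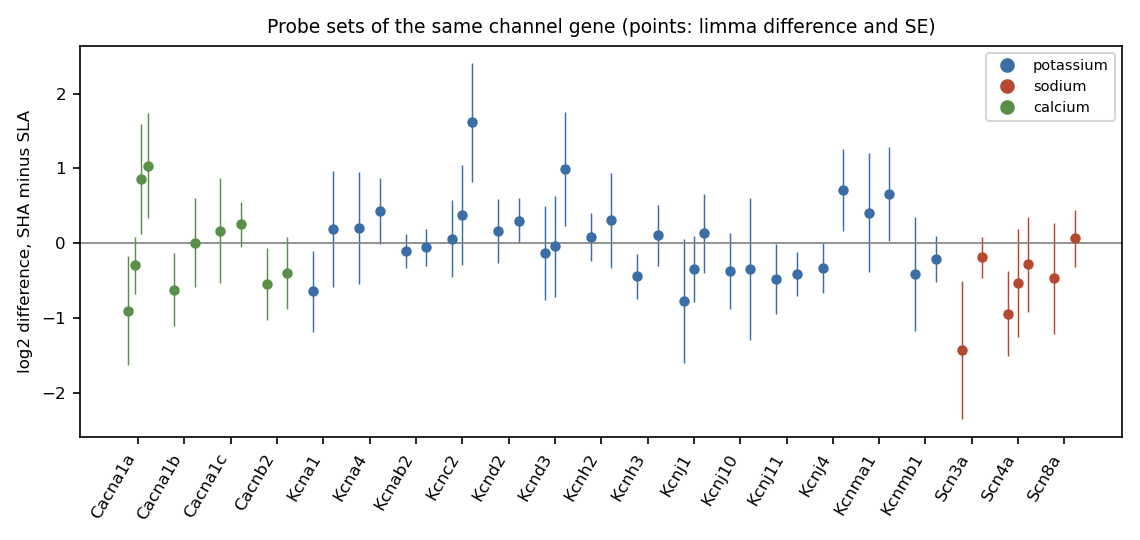
Line difference (log2, SHA minus SLA) with its SE for every tested probe set of the 21 channel genes with at least 2 of them, coloured by class. In 13 genes all points lie on 1 side of 0, in the other 8, such as Cacna1a (-0.90 to 1.04), they lie on both sides.

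The 37 channel probe sets that were not tested were dim on average over the 6 pools, and 27 of them had at least 1 pool at or below the floor. Of all 131, 101 had no pool at or below the floor, 15 had 1, 8 had 2, 2 had 3, 2 had 4, 1 had 5 and 2 had all 6. The 2 at the floor in every pool were Kcnj5, a G protein-gated subunit best known from the heart atrium, and Kcnn3, a small-conductance calcium-activated channel. For 16 genes no probe set was bright enough. Among them were brain channels such as Kcna2, Kcnj6 and Kcnj9, as well as Scn10a and Scn11a of sensory neurons and Cacna1s of skeletal muscle. A dim probe set shows only that its signal was low on these arrays.

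A list of channels best known outside the brain, which is not complete and leaves out Kcnj5, had 28 probe sets of 17 genes on the array. Of these 8 probe sets had at least 1 pool at or below the floor, with at most 4 such pools. Of these 28, 19 were tested, 5 with higher and 14 with lower values in SHA and a median of -0.34, against -0.01 over all probe sets tested. Between same-numbered pools that median was -0.57, -0.35 and 0.33, so it changed sign at number 3. Besides Kcne1 they included Kcnj11, the potassium channel pore closed by ATP in pancreatic beta cells. D86039_at of Kcnj11 read 367.4, 332.4 and 263.3 in SHA and 592.5, 370.6 and 344.2 in SLA. The lines overlapped, and the difference was -0.41 ± 0.29. Scn4a, the sodium channel of skeletal muscle, had lower values in SHA in all 3 probe sets, by 0.28 to 0.94. Its largest difference came from M26643_g_at, where SLA pool 1 read 345.8 and the other SLA pools 123.7 and 145.7. Markers of striated muscle had a summed intensity of 1142 to 1519 in SHA and 841.9 to 1170 in SLA, and those of the choroid plexus 1008 to 1207 and 1109 to 1350. Their part in the values of these genes was not tested.

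Pool number went with far more of the variation than the line did. The labels number the pools of each line 1 to 3 and do not say what pools of the same number share. For the median channel probe set, pool number held 61.8% of the sum of squares of the log2 values and line 11%, against 62.4% and 7.61% over all probe sets tested. With 2 degrees of freedom for number, 2 for the rest and 1 for line, number is given more of it than line by construction. Number held more than line in 78 of the 94, 83.0%, against 85.3% of all probe sets tested. The 4 probe sets without overlap between lines, Kcne1, Kcnq3, Kcnh7 and Kcnv1, had 75.2%, 62.4%, 52.6% and 62.3% of their variation with line. They were picked for that lack of overlap, so a large share with line follows from the choice.

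A limma F test of pool number, added after the data were seen, passed an adjusted p of 0.05 for 11 channel probe sets of 9 genes. That is 11.7% of the 94, where 7.6% of all probe sets tested passed. By class they were 5 of 58 for potassium (8.62%), 3 of 12 for sodium (25%), 3 of 19 for calcium (15.8%) and 0 of 5 for chloride channels. All 11 were on the list of principal hippocampal channels, which holds 59 of the 94 probe sets tested and was drawn up with earlier results known. In all 11 the pools numbered 2 lay above the pools numbered 1 in both lines, by 1.47 to 3.63 in SHA and 1.35 to 3.55 in SLA. In 10 of them pool 1 was the lowest of its line in both lines, and in 8 pool 2 was the highest in both. Agreement of the lines by pool number is what this test picks, so it is no further support. Of all 498 probe sets that passed, by comparison, 279 were higher and 215 lower at number 2 than at number 1 in both lines. The F test depended on its settings, over all probe sets as over the channels. After quantile normalization 4 channel probe sets passed (4.17%, against 2.62% of all) and after median centring 8 (8.51%, against 2.36%). With no filter 0 passed, where 0.0458% of all did, and with no intensity trend 0, where 0.061% did.

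Among sodium channels, 3 alpha subunit probe sets passed, and after quantile normalization 1 did. Scn2a, M22254_at, read 137.9, 707.0 and 441.8 in SHA pools 1, 2 and 3 and 66.3, 775.4 and 495.9 in SLA pools 1, 2 and 3 (adjusted p = 0.0055 by the F test). The order of the pools was the same in both lines and each line spanned a wider range than the difference between them. Scn1a, M22253_at, read 17.1, 211.4 and 93.7 in SHA and 54.3, 258.1 and 91.3 in SLA (adjusted p = 0.036). Scn8a, AF049239_s_at, read 25.7, 138.9 and 95.1 in SHA and 41.0, 137.5 and 158.7 in SLA (adjusted p = 0.046). In each of the 3 genes pool 1 was the lowest of its line. The other Scn8a probe set tested, L39018_at, read 138.8, 233.9 and 228.8 in SHA and 183.2, 276.2 and 128.0 in SLA, so there pool 3 was the lowest in SLA.

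The same windows were matched for 7 of the 9 genes past the F test, and their CG counts spread widely. They were 4 in Scn2a, 7 in Kcnab1, 20 in Kcnj10, 28 in Cacna1b, 34 in Cacna1a, 43 in Kcnd3 and 53 in Scn8a. Scn2a and Scn8a are shown because these sodium channel genes shared the order of pools 1 and 2 and lie at either end of this range. Scn2a lies at chr3:70710706-70710955 and Scn8a at chr7:133860977-133861226, both on the plus strand (RefSeq, GRCr8), with each CG in capitals.
Scn2a: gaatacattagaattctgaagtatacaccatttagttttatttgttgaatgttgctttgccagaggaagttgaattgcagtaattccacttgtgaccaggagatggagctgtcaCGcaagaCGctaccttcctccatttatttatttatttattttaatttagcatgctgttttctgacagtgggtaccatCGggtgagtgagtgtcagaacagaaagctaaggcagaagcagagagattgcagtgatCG
Scn8a: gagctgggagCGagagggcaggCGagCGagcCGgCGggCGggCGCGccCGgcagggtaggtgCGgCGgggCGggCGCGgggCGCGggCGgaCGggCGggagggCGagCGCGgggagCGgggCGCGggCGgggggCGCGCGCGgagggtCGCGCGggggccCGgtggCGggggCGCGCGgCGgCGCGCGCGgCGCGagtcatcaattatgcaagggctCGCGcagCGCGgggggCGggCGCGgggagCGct
Of all windows 63.9% had at least as many CG as Scn2a and 0.0291% as many as Scn8a.

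Among calcium channels, the N-type Cacna1b, AF055477_at, read 136.0, 485.2 and 533.9 in SHA and 154.3, 512.8 and 437.2 in SLA (adjusted p = 0.0074 by the F test). Same-numbered pools of the lines were close while pools 1 lay far below the rest. Its other probe set, M92905_s_at, had this order in SHA, at 84.7, 276.6 and 348.1, but not in SLA, at 329.5, 271.7 and 329.7. The P/Q-type Cacna1a passed in 2 of its 4 probe sets. M99222_s_at read 109.4, 302.4 and 207.0 in SHA and 28.9, 225.7 and 174.8 in SLA (adjusted p = 0.047). For rc_AI229031_s_at the values were 57.1, 426.5 and 408.5 in SHA and 215.6, 548.5 and 551.9 in SLA (adjusted p = 0.027). The remaining Cacna1a probe sets, AF051526_at and AF051527_s_at, did not have pool 1 lowest in both lines.

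Among potassium channels, both Kcna1 probe sets passed. X12589cds_s_at, whose values are given above, had an adjusted p of 0.0055, and M26161_at read 84.0, 387.8 and 158.7 in SHA and 77.2, 517.2 and 87.3 in SLA (adjusted p = 0.020). In both of them pool 2 stood far above pools 1 and 3. Kcnab1, a beta subunit that gives Kcna channels fast inactivation, read 45.1, 262.9 and 125.0 in SHA and 36.7, 200.8 and 155.6 in SLA (adjusted p = 0.025). Kcnd3 in rc_AI230211_s_at read 58.9, 183.9 and 174.2 in SHA and 57.5, 241.6 and 178.5 in SLA (adjusted p = 0.033). Its probe set M74898cds_s_at had pool 2 lowest in both lines, the opposite order. Kcnj10 in U27558_at read 19.4, 153.7 and 32.8 in SHA and 33.0, 199.4 and 30.4 in SLA (adjusted p = 0.038), the only one of the 11 in which SLA pool 3 was below SLA pool 1.

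**Figure D4:**
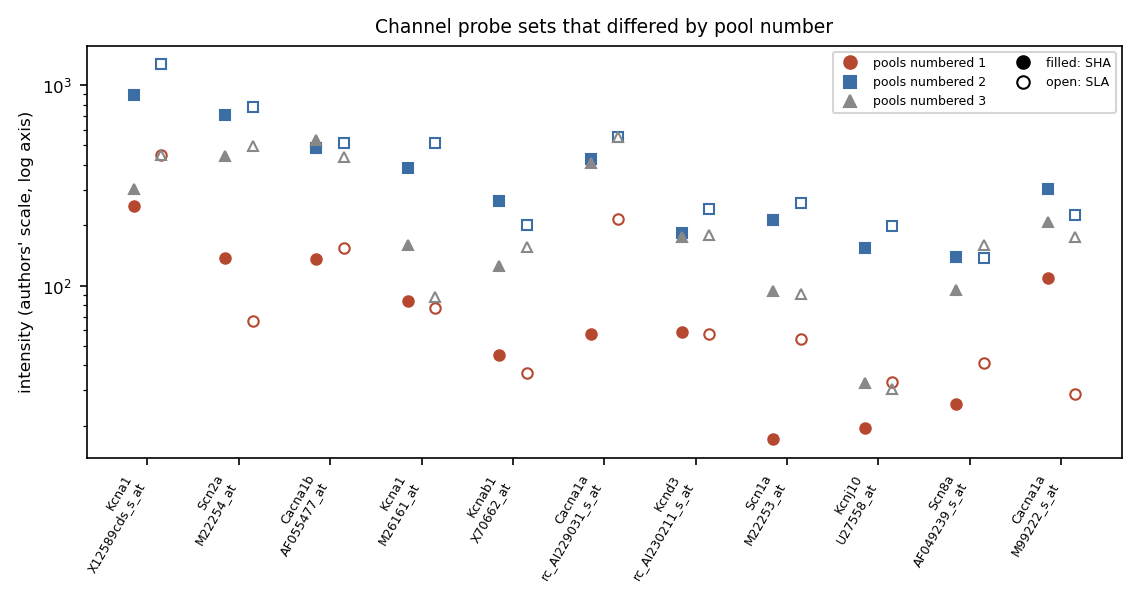
Intensity (authors' scale, log axis) of the 11 channel probe sets past the F test of pool number, with colour and shape for pool number, filled symbols for SHA and open symbols for SLA. In all 11 the pools numbered 2 lie above the pools numbered 1 in both lines. The F test picks probe sets that follow pool number alike in both lines. Filled and open symbols of the same number often lie close, but for rc_AI229031_s_at of Cacna1a pool 1 reads 57.1 in SHA and 215.6 in SLA.

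Counted without a test, pool 1 was the lowest of its line in both lines in 29 of the 94 channel probe sets, 30.9%, where the share of all probe sets tested was 22.8%. It was 6 of 12 for sodium (50%), 6 of 19 for calcium (31.6%), 16 of 58 for potassium (27.6%) and 1 of 5 for chloride channels. Pool 1 was the highest of its line in both lines in 11 of 94, 11.7%, where the share of all probe sets tested was 18.0%. After median centring the first count was 22 of 94 (23.4%), where the share of all probe sets was 17.7%. By class it was then 4 of 12 for sodium (33.3%), 5 of 19 for calcium (26.3%) and 12 of 58 for potassium channels (20.7%). Potassium channels then had more probe sets highest in pool 1, 14 of 58 (24.1%), against 21.8% of all. Without that centring, 26 of 59 probe sets of the principal hippocampal channels (44.1%) had pool 1 lowest. Of the channels best known outside the brain it was 1 of 19 (5.26%). In the channels best known outside the brain the median difference of pool 2 from pool 1 was -0.54 in SHA and -0.68 in SLA. In the principal hippocampal channels it was 0.70 and 0.51.

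**Figure D5:**
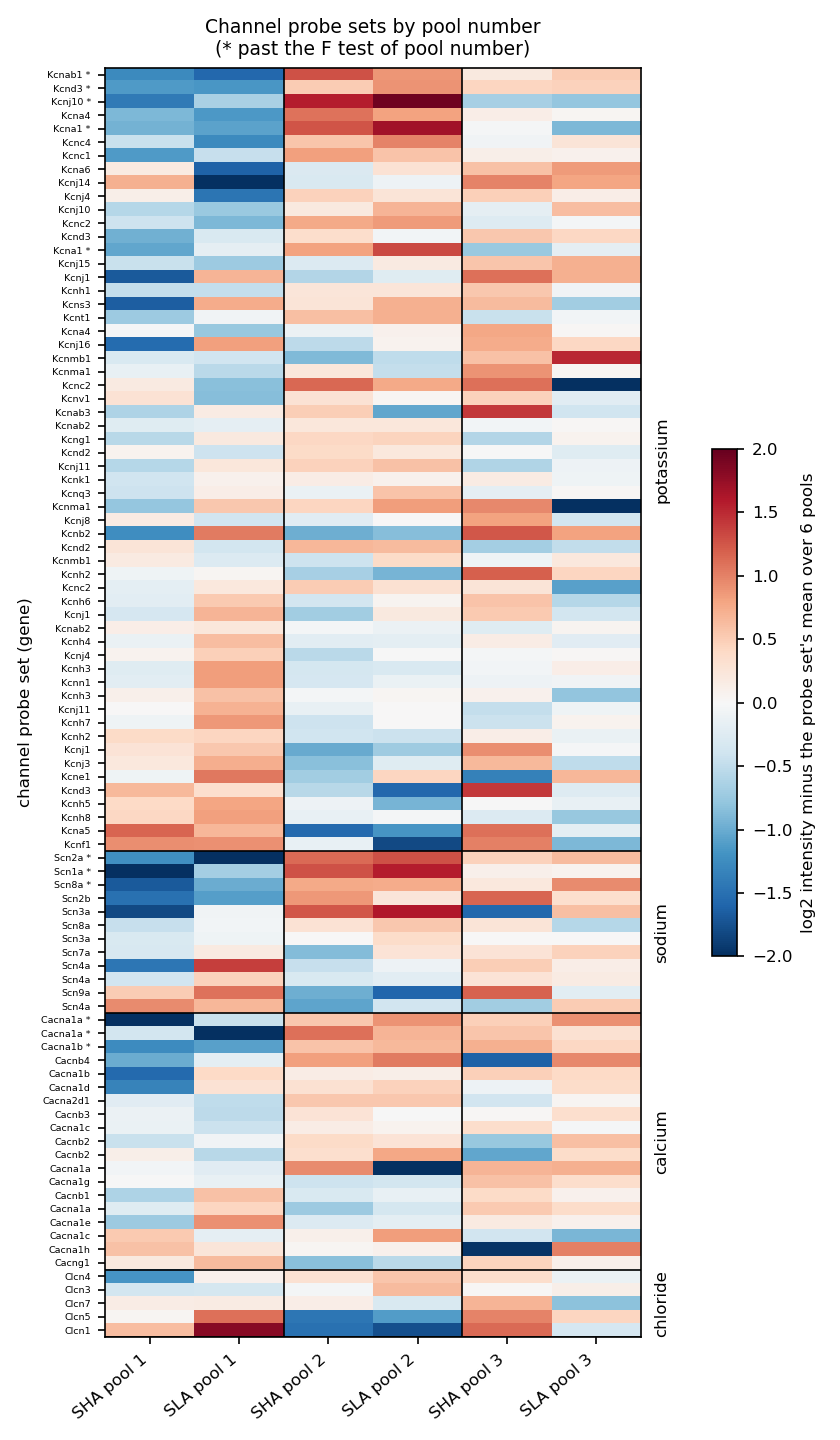
Log2 intensity of each of the 94 channel probe sets tested minus its mean over the 6 pools, with pools side by side by number, grouped by class; colours stop at -2 and 2 and stars mark the 11 past the F test of pool number. The starred rows are blue in both pools numbered 1 and mostly red in both pools numbered 2. That SHA and SLA share a pattern in these rows is what the F test picks them for.

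Some other measures moved with the pool number and some did not. Taking the brightest probe set of each gene, 8 of 10 neuronal markers on the array were lowest in pool 1 of both lines and 4 passed the F test, where the shares of all probe sets tested were 22.8% and 7.6%. Their summed intensity was 18290, 23990 and 21760 in SHA pools 1, 2 and 3 and 16160, 22090 and 21310 in SLA. Of 13 hippocampal markers tested 3 were lowest in pool 1 of both lines and 3 passed the F test, and the list summed to 16930, 14460 and 15490 in SHA and 13870, 13050 and 14850 in SLA. Of 9 interneuron markers 2 were lowest in pool 1 of both lines and 2 passed. Their sums were 4377, 4373 and 5701 in SHA and 3450, 3904 and 4902 in SLA. These neuronal lists thus did not share 1 order of the pools. Oligodendrocyte markers summed to 22200, 15960 and 15630 in SHA and to 27070, 15380 and 17300 in SLA, highest in pool 1 of both lines. The sum follows the brightest genes. By probe set 4 of 13 tested (30.8%) were highest in pool 1 of both lines, against 18.0% of all probe sets tested, and 2 were lowest. The median difference of pool 2 from pool 1 over the 13 was 0.07 in SHA and 0.01 in SLA. The control transcripts added to each sample had a geometric mean of 5458, 1121 and 2279 in SHA and 12280, 639.7 and 1564 in SLA, also highest in pool 1. The log2 ratio of the 3′ to the 5′ probe set of Gapdh was 0.07, 0.20 and 0.33 in SHA and -0.02, 0.09 and 0.43 in SLA. That of actin was 0.79, 0.61 and 0.57 in SHA and 0.41, 0.57 and 0.59 in SLA, so it ran in opposite orders in the lines. Of all probe sets other than array controls, 10.2%, 15.9% and 4.95% lay at or below the floor in SHA pools 1, 2 and 3. In SLA it was 5.4%, 13.6% and 10.1%, so the share was highest in pool 2 of both lines. Among the channel probe sets the counts were 16, 14 and 6 in SHA and 4, 15 and 7 in SLA. The part of all these measures in the channel values was not tested.

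Genes that work with the channels were looked at through a list of 50 partners, of which 31 were on the array with 53 probe sets. Of 43 tested 23 had higher and 20 lower values in SHA, with a median of 0.02. In limma 0 passed the threshold. At an unadjusted p under 0.05 limma called 1, lower in SHA, where 1.13% of all probe sets tested were called lower and 0.366% higher. This was Cntnap1, the paranodal protein that keeps potassium channels away from the node of Ranvier. AF000114_at of Cntnap1 read 667.5, 833.5 and 744.2 in SHA and 903.3, 1057.2 and 1402.7 in SLA. Every SHA pool lay below every SLA pool, and the difference was -0.56 ± 0.24 with an unadjusted limma p of 0.044 and an adjusted p of 1.0. Of the 43, 2 did not overlap between lines (4.65%), both lower in SHA, against 5.66% of all probe sets tested. Of all probe sets tested 3.65% lacked overlap with lower values in SHA.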

How the data were processed

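Total RNA of 6 hippocampal pools, 3 per line, was measured on one-colour arrays. The values deposited by the authors are linear intensities by probe set, already scaled to a common mean (the 2%-trimmed mean lay between 250.3 and 250.4). How they were computed and scaled is not stated in the labels used here. Groups come from the sample titles.

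Of 8799 probe sets 59 controls were left out. Values below 8.9, the 10th percentile, were set to that floor, log2 was taken, and the 25% with the lowest mean was left out, which kept 6555. Lines were compared in limma 3.58.1 (R 4.3.3; lmFit, trended eBayes; two-sided). Adjustment was by Benjamini-Hochberg across the 6555 probe sets, with a threshold of 0.05. Names came from the platform annotation. All 131 channel probe sets matched the RefSeq table by gene number.

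Pools of the same number deviated together from their line means (r of 0.442, 0.675 and 0.127 across probe sets), so numbers were taken to pair pools. The pairing comes from the data, and SHA pool 3 correlated at 0.156 with SLA pool 1. Over the channel probe sets r was 0.452, 0.752 and 0.135 for same-numbered pools, and 0.284 between SHA pool 3 and SLA pool 1. In both sets SHA pool 3 thus went more closely with SLA pool 1 than with SLA pool 3, so the pairing of number 3 is weak. Values of all pools are given for channel probe sets at an unadjusted p under 0.05 or without overlap, and for up to 12 principal hippocampal channels by smallest p per family. Other probe sets with pool values, apart from those past the F test of pool number and Cntnap1, were chosen after their values were seen. The members and lists were chosen with earlier results of these data known. The fit was tested on simulated data. Alternatives were other normalizations, floors, filters, trends, array weights, the replicate block and leaving out pools.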

Additional observations from a re-analysis of the deposited data

How the results depend on the processing

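No channel probe set passed the adjusted threshold under any of the alternatives run. A cut at an unadjusted p of 0.01 was applied to the comparison as reported only, where 0 passed. Some channels had a limma p below 0.01 in other fits. Examples are Kcne1 with no intensity trend (0.0094) or array weights (0.0061), and Kcna1 with the block (0.0044) or block plus weights (0.0014). Over all probe sets tested the count below 0.01 was 19 as reported, 24, 76, 55 and 288 in these fits. The count at an unadjusted p under 0.05 was 1 as reported, 0 when the dimmer 50% was left out, 4 in the fit with the replicate block, 5 under array weights, and 12 under block plus weights, which was added after the data were seen. Leaving out each pool in turn gave 1 to 3, with 3 for SHA pool 2, SLA pool 2 and SHA pool 3 and 2 for SLA pool 3. Over all probe sets tested the same count was 98 as reported, 203 with no filter, 354 with array weights, 345 with the block and 871 with both. The latter fit passed 12 of all probe sets, none of them a channel. With the block no other call changed. The causes of these shifts were not tested.

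The count without overlap between lines was 4 as reported, 1 when the dimmer 50% was left out, 8 to 16 with each pool left out in turn and 26 with both pools numbered 1 left out, where fewer pools make overlap rarer by construction. Over all probe sets the same count was 371 of 6555 as reported and 260 of 4370 when the dimmer 50% was left out. It was 710 to 1030 of 6555 with each pool left out and 1588 of 6555 without both pools numbered 1. Median centring moved the split of all probe sets at an unadjusted p under 0.05 from 24 higher of 98 to 33 higher of 93, and that of probe sets without overlap from 132 of 371 to 149 of 322.

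The sodium median was -0.37 as reported, -0.062 with the brightest probe set per gene and -0.41 to 0.083 with each pool left out. The calcium median was -0.29 as reported, -0.089 with no filter, -0.13 when the dimmer 50% was left out, -0.018 without both pools numbered 1 and -0.47 to -0.10 with each pool left out. The count past the F test of pool number was 11 as reported, 4 after quantile normalization, 0 with no filter and 0 with no intensity trend.

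Of 15 named probe sets 14 kept their sign under every alternative in which they passed the filter, 15 to 19 of the 19 run. Kcnb2 took the other sign, 0.15, without both pools numbered 1. The fits with another filter, no intensity trend, a robust trend or the block alone leave the difference unchanged by construction, so there the sign could not change. The 15 were named for a lack of overlap or for the smallest p in their family. Their kept signs are thus no separate support. Signals near the floor of 8.9 limit the dim channels, and 3 pools per line limit all of them.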
